A study of Mus musculus with 10 samples.

Results

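Cells make cholesterol from acetyl-CoA along a long chain of enzymes, and 7 of these enzymes were examined here: Hmgcs1, Mvd, Idi1, Fdps, Fdft1, Sqle and Cyp51. They were taken by their symbols from a table of read counts for 39017 genes, in which each symbol stands on 1 row. All 7 act in synthesis, and no gene of cholesterol uptake is among them. The RNA came from lung tumors of mice on a C57BL6/J background. Both groups were KP mice, which carry, among other alleles, floxed p53 on both copies, and the KPG1 mice carried floxed Glut1 (Slc2a1, the gene of a glucose transporter) on both copies as well. Cre recombinase was given into the trachea with the adenovirus Ad5CC10-Cre, whose promoter is active in CC10+ club cells of the airways, so only infected cells of that kind and their progeny should lose Glut1. Tumors were dissected 20 weeks and 1 day later, dissociated and depleted of CD45+ immune cells on magnetic beads, and the polyadenylated RNA of the remaining fraction was sequenced. The age of the mice is not given in the labels.

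There were 5 libraries labelled control and 5 labelled Glut1-KO, with 35250991 to 49760462 counted reads each. The controls are labelled as heterozygous for the floxed Glut1 allele, although the design description calls them wild type, and all 5 are male. Glut1-KO replicates 1 to 3 are female and replicates 4 and 5 are male. A second number in the deposited names, which may stand for the mouse, takes 2 values in the controls and 4 in the Glut1-KO group, where both male libraries share one. No label says that replicates came from separate animals, so p-values measure the spread between these libraries, part of which may be technical. Slc2a1, as counts relative to the library total (CPM) scaled by TMM factors for library composition, reached 118, 86.7, 92.6, 103.5 and 73.2 in control replicates 1 to 5. In the libraries labelled Glut1-KO it reached 60.2, 42.5, 34.6, 92.4 and 102.9. The 3 female libraries thus lay below every control, whereas both male libraries lay within the control range, and results are therefore also given for each sex apart. Reads outside the floxed exons would still be counted, and the part of Slc2a1 that was counted was not tested.

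In the mevalonate pathway, acetyl-CoA units are joined to HMG-CoA, turned into mevalonate and then into isoprenoid building blocks, which are condensed to farnesyl diphosphate and squalene before squalene is closed to a sterol ring and trimmed to cholesterol. Much of the acetyl-CoA in the cytosol can come from glucose by way of citrate. When sterols in the membrane of the endoplasmic reticulum run low, transcription factors of the SREBP family move to the nucleus and switch the genes of the pathway on together, often with the partner factors NF-Y and Sp1. In the lung, alveolar type 2 cells place cholesterol in surfactant next to phospholipids.

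The promoters are shown because they were searched for sequences through which these genes are known to be switched on as a group. RefSeq windows (build GRCm38.p6) were matched by symbol for 4 of the 7 genes (Hmgcs1, Mvd, Idi1 and Cyp51), and the 250 bases before each RefSeq start site were searched on both strands for the sterol regulatory element TCACNCCAC, the CCAAT box bound by NF-Y and the GC box GGGCGG bound by Sp1. No match overlapped another. The gene starts given further on are those of GENCODE M21, which equal the RefSeq start for Mvd but lie 28 bases downstream of it for Hmgcs1 and 105 and 49 bases upstream for Idi1 and Cyp51, so that the ends of the last 2 windows lie inside the GENCODE genes. The windows below run 5′ to 3′ on the strand of the gene: that of Hmgcs1, which varied apart from the other genes, and those of Mvd and Cyp51, the pair that varied most alike. Capitals mark the matches.
Hmgcs1, chr13:119690101-119690350, plus strand: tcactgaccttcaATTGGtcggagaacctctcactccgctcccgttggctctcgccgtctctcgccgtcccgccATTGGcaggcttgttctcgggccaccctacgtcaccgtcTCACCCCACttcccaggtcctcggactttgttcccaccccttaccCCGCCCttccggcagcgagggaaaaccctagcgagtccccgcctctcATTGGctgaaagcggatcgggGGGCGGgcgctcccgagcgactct
Mvd, chr8:122443423-122443672, minus strand: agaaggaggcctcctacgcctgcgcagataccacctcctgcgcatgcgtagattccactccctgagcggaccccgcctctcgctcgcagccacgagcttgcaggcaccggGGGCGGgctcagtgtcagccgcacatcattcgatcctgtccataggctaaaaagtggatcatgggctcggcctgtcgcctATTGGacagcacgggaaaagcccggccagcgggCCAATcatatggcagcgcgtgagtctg
Cyp51, chr5:4104698-4104947, minus strand: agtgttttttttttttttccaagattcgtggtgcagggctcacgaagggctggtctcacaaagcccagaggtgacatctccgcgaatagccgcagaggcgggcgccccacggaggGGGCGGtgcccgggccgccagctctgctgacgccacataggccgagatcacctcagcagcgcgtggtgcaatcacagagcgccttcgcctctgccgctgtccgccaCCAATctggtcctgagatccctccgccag
The CCAAT box and the GC box were both present in all 4 windows, whereas 33.8% and 32.7% of the 32851 RefSeq windows of this length hold them. Hmgcs1 had 3 CCAAT boxes, Mvd 2, Idi1 2 and Cyp51 1, and the one nearest the start began 45, 27, 14 and 29 bases before it, respectively, counted from the RefSeq start (those of Idi1 and Cyp51 are inside the GENCODE gene). The sterol regulatory element TCACNCCAC was matched in the Hmgcs1 window alone, 137 bases before the start, and 1.05% of all windows hold this string. Other forms of the element were not searched, so a window with no match may still hold one. A match describes letters in a window and does not show that a factor was bound in these tumors.

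No enzyme of the 7 differed between the libraries labelled Glut1-KO and the controls by more than the spread between libraries. With limma after voom weighting, 0 of 7 passed an adjusted p of 0.05, where 0.0% of the 15922 genes tested did so (0 genes). At an unadjusted p under 0.05 there were 0 of 7 enzymes and 7.68% of all genes (1223). By edgeR's quasi-likelihood test 0 of 7 enzymes and 0 of all genes passed, and by DESeq2 0 of 7 passed while 1.38% of genes did (215 of 15538). All 7 enzymes passed the filter on low counts, their counts running from 419 for Idi1 to 10462 for Hmgcs1, so counting error is small beside the spread between libraries. Of the 7, 6 had a positive log2 fold change (Glut1-KO minus control) and 1 a negative one, with a median of 0.12, while 49.3% of all genes were positive and their median was -0.005. Leaving out 1 library gave 4 to 7 positive values, with 4 of 7 without Glut1-KO replicate 5. In 0 of 7 did the libraries of the groups fail to overlap, which 1.85% of all genes showed.

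**Figure D1:**
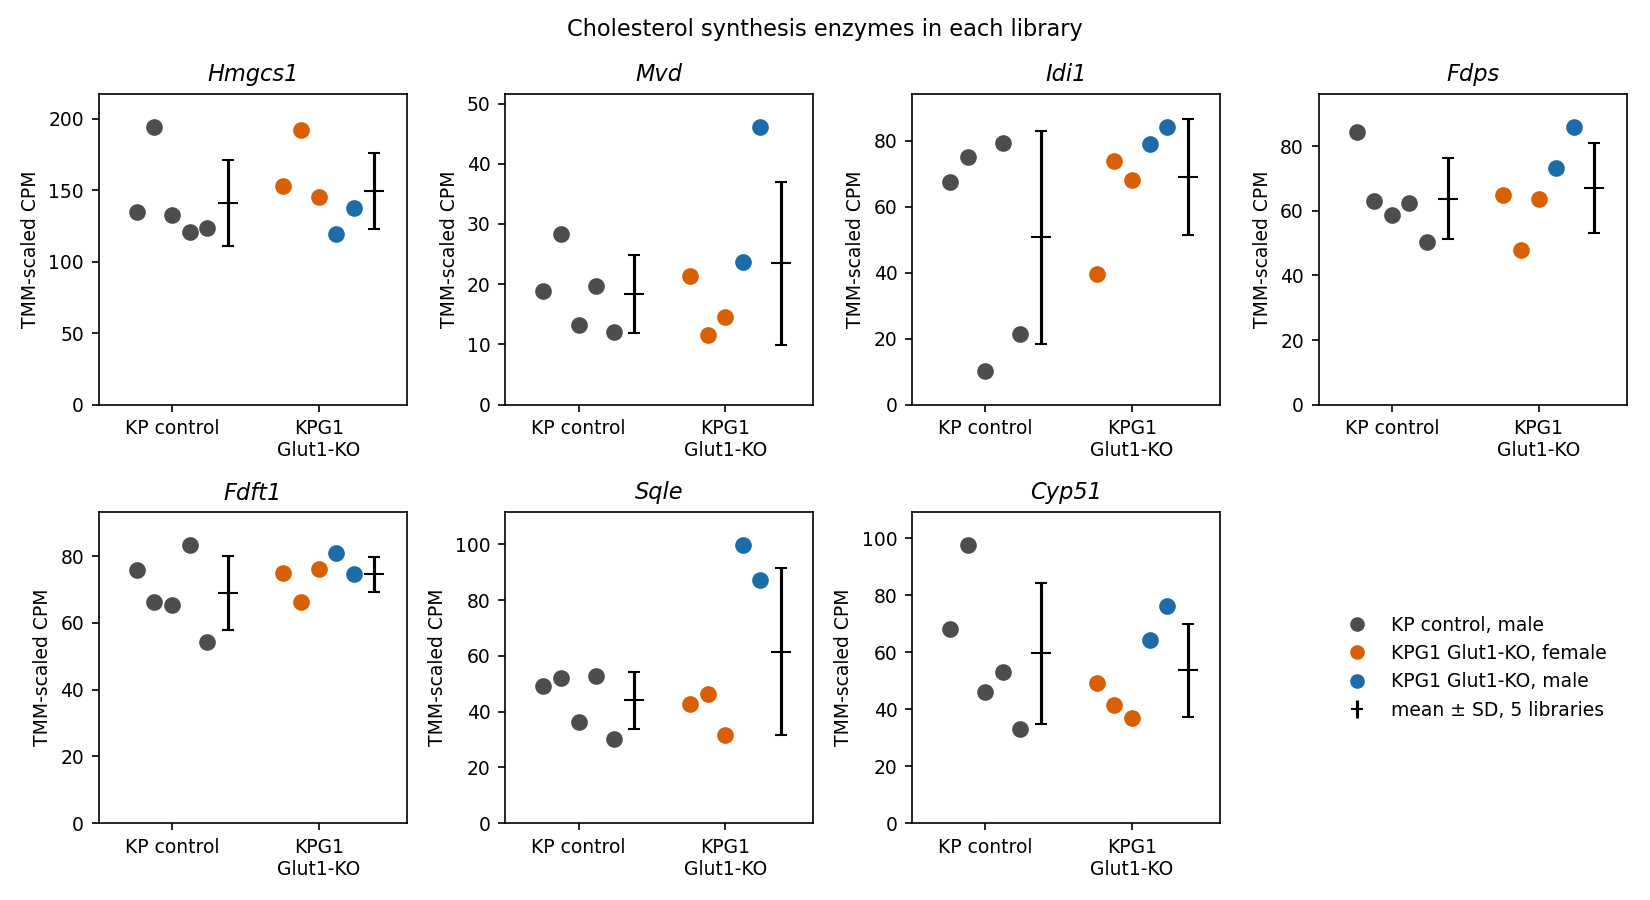
TMM-scaled CPM (vertical axis, starting at 0) of the 7 enzymes in each library, with controls in grey, female Glut1-KO libraries in orange, male Glut1-KO libraries in blue, and the mean ± SD of the 5 libraries of a group in black. The groups overlap for every enzyme, Idi1 has 2 controls far below the others, and Sqle has both male Glut1-KO libraries above every other library.

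Hmgcs1 (ENSMUSG00000093930, chr13:119690379-119708260, plus strand, GRCm38) encodes the cytosolic HMG-CoA synthase, which joins acetyl-CoA to acetoacetyl-CoA at the entry of the pathway. Control replicates 1 to 5 gave 134, 194, 132, 121 and 123 CPM, and the Glut1-KO replicates gave 153, 192, 145, 119 and 138 CPM. The means were 141 ± 30.3 and 149 ± 26.9 CPM (SD, n = 5 each), and replicate 2 was the highest of either group, with the rest of the libraries below both. Its log2 fold change was 0.09 (SE 0.16, 95% confidence interval -0.27 to 0.45, limma adjusted p = 0.911).

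Mvd (ENSMUSG00000006517, chr8:122433601-122443422, minus strand) encodes mevalonate diphosphate decarboxylase, which produces isopentenyl diphosphate, the building block of all isoprenoids. It reached 18.9, 28.3, 13.2, 19.7 and 12.1 CPM in the controls and 21.4, 11.6, 14.5, 23.6 and 46.1 CPM in the Glut1-KO libraries. Replicate 5 of Glut1-KO stood above all others, and the remaining 4 of that group lay in or just below the control range. The log2 fold change was 0.22 (SE 0.37, interval -0.59 to 1.04, limma adjusted p = 0.906). Leaving out 1 library gave -0.07 (without Glut1-KO replicate 5) to 0.44 (without Glut1-KO replicate 2), so its sign was not stable.

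Idi1 (ENSMUSG00000058258, chr13:8885501-8892451, plus strand) encodes the isomerase that turns isopentenyl diphosphate into its reactive isomer, from which chain building starts. Control replicates reached 67.6, 75.2, 10.3, 79.2 and 21.4 CPM, against 39.6, 73.9, 68.1, 79.2 and 84.2 CPM in Glut1-KO. Control replicates 3 and 5 were thus far below the other controls, and the highest control exceeded the lowest by 7.66-fold, a larger ratio than 91.9% of tested genes showed among the controls. The log2 fold change was 0.77 (SE 0.52, interval -0.39 to 1.92, limma adjusted p = 0.758). It was 0.44 by edgeR and 0.45 by DESeq2, below the 0.48 that either gave for Sqle, and by limma it was 0.30 without control replicate 3 and 0.55 without control replicate 5. These low values rest on 419 and 888 reads.

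Fdps (ENSMUSG00000059743, chr3:89093588-89101959, minus strand) encodes farnesyl diphosphate synthase, whose product feeds both sterols and the lipid anchors of proteins. The controls gave 84.2, 63.0, 58.7, 62.3 and 50.3 CPM and the Glut1-KO libraries 64.8, 48.0, 63.7, 73.2 and 86.0 CPM. The ranges all but coincide, and the log2 fold change was 0.07 (SE 0.17, interval -0.31 to 0.45, limma adjusted p = 0.941).

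Fdft1 (ENSMUSG00000021273, chr14:63145150-63179578, minus strand) encodes squalene synthase, the first step that leads to sterols alone. It was the steadiest of the 7, with 75.8, 66.2, 65.3, 83.2 and 54.3 CPM in the controls and 74.8, 66.3, 76.1, 80.9 and 74.5 CPM in Glut1-KO. All Glut1-KO values fell inside the control range. The log2 fold change was 0.12 (SE 0.12, interval -0.15 to 0.40, limma adjusted p = 0.832).

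Sqle (ENSMUSG00000022351, chr15:59315077-59331192, plus strand) encodes squalene epoxidase, an oxygen-dependent step that prepares squalene for ring closure. In controls it reached 49.3, 52.1, 36.4, 52.8 and 30.1 CPM, and in the Glut1-KO replicates 42.8, 46.4, 31.5, 99.7 and 87.2 CPM. The 3 female libraries lay inside the control range and both male libraries above it. Over all 10 libraries the log2 fold change was 0.36 (SE 0.32, interval -0.33 to 1.06, limma adjusted p = 0.805).

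Cyp51 (ENSMUSG00000001467, chr5:4081145-4104746, minus strand) encodes lanosterol demethylase, a cytochrome P450 that acts on the first closed sterol. Its values were 68.2, 97.6, 46.0, 53.1 and 33.1 CPM in the controls and 49.2, 41.5, 37.0, 64.4 and 76.2 CPM in Glut1-KO. Here too the female Glut1-KO libraries were the lower ones of their group, but every Glut1-KO value lay within the control range. The log2 fold change of -0.12 was the single negative one (SE 0.29, interval -0.76 to 0.52, limma adjusted p = 0.940). Leaving out 1 library gave -0.31 (without control replicate 5) to 0.09 (without control replicate 2), so its sign was not stable. An exact 2-sided permutation test over the 252 ways to divide the 10 libraries into groups of 5, which cannot give less than 0.00794, gave p from 0.270 for Idi1 to 0.746 for Cyp51.

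Levels can be compared between genes only per length, for which TPM values (transcript levels from counts divided by the total exon length of each gene) were used. Hmgcs1, at the entry of the pathway, had the highest level, 102 ± 28.2 TPM (SD over 10 libraries), and was above Idi1, the next, in 10 of 10 libraries. Idi1 and Fdft1 followed at 55.0 ± 24.9 and 54.1 ± 5.59 TPM and could not be ordered, Idi1 being higher in 7 of 10 with a mean difference of 0.86 ± 20.5 TPM. Fdps (49.4 ± 8.13 TPM), Cyp51 (41.3 ± 16.7), Mvd (36.0 ± 18.1) and Sqle (30.2 ± 12.1) came after them. Each of these was above the next in 8 or 9 of 10 libraries, with mean differences that were smaller than their SD, so the order of neighbours below Hmgcs1 is not settled by these data. Several of the genes overlap another in GENCODE M21, on the opposite strand in the case of Hmgcs1, Mvd, Idi1, Fdft1 and Cyp51, and Fdps overlaps 2 on its own strand. Of these, Gm43738 is not in the count table and Gm22935 holds 0 to 6 reads, against 2019 to 3796 for Fdps. On the opposite strand, Ctsb (23302 to 41724 reads) overlaps Fdft1 (2251 to 3564 reads) over 774 bases and Akap9 (4224 to 9113 reads) overlaps Cyp51 (1373 to 5257 reads) over 166 bases. The libraries were stranded, but whether the counting used strand is not given in the sources used here, and the part of such reads was not tested. Sqle overlaps no other gene.

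The sexes of the Glut1-KO libraries were looked at apart because Slc2a1 was low only in the female libraries. Both male Glut1-KO libraries were above all 3 female ones for 5 of the 7 enzymes (Mvd, Idi1, Fdps, Sqle and Cyp51), which 20.3% of tested genes also showed. Mean Sqle was 93.4 ± 8.84 CPM in the males (SD, n = 2) and 40.2 ± 7.79 CPM in the females (n = 3), a ratio of 2.32, and mean Mvd was 34.9 ± 15.9 and 15.8 ± 5.03 CPM, a ratio of 2.20. Hmgcs1 had the opposite order, 128 ± 12.9 CPM in males and 163 ± 25.2 CPM in females.

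Against the 5 controls, which are all male, the 2 male Glut1-KO libraries gave a log2 fold change of 1.11 for Sqle (SE 0.24, interval 0.55 to 1.66, limma adjusted p = 0.330), 0.92 for Mvd (SE 0.37, adjusted p = 0.511) and 1.06 for Idi1 (SE 0.77, adjusted p = 0.681). Sqle and Mvd were the 2 of 7 at an unadjusted p under 0.05, where 9.51% of genes were, and 0 of 7 passed after adjustment (0.00628% of genes did). Both male libraries exceeded every control for Sqle alone, which 8.54% of genes showed. Of the 7 enzymes, 6 had a positive value in this comparison, with a median of 0.34, while 48.9% of all genes were positive with a median of -0.01. The 3 female libraries against the same controls gave 3 positive and 4 negative values with a median of -0.10, from -0.40 for Cyp51 (interval -1.12 to 0.32) to 0.58 for Idi1 (interval -0.91 to 2.07). These comparisons share their controls and were 0 of 7 past the threshold in the female libraries too (0.044% of genes passed).

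In a fit with males, females and controls as separate groups, a contrast that was added after the values had been seen, male minus female Glut1-KO came to 1.23 for Sqle (interval 0.65 to 1.81, limma adjusted p = 0.106) and 1.14 for Mvd (interval 0.23 to 2.05, adjusted p = 0.198), the 2 of 7 at an unadjusted p under 0.05, where 18.6% of genes were. No enzyme passed the threshold, which 0.0502% of genes did. The male Glut1-KO libraries differ from the female ones in sex, in Slc2a1 and, if the second number in their names is the mouse, in coming from 1 animal, and these cannot be told apart. Summed markers also separated them without overlap: dissociation stress genes (4370 to 4830 CPM in males and 6330 to 7020 CPM in females), alveolar type 1 genes (1420 to 1920 and 2220 to 2820 CPM), proliferation genes (386 to 477 and 503 to 554 CPM), erythroid genes (407 to 751 and 189 to 232 CPM) and tumor epithelium genes (6630 to 10300 and 4670 to 6120 CPM). The other lists of the 11 overlapped between males and females in summed level. Among single tested genes, 20.3% had both male Glut1-KO libraries above every female one. The part of the separated markers in the levels of the enzymes was not tested.

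**Figure D2:**
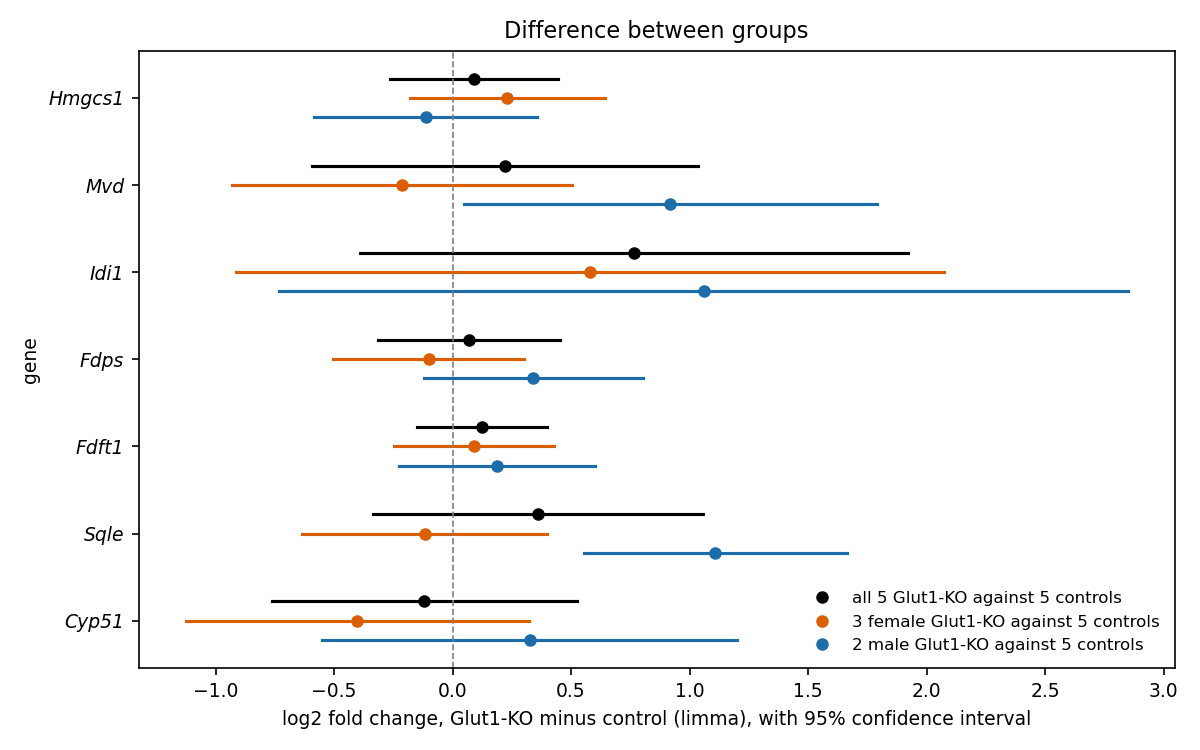
Log2 fold change with its 95% confidence interval (horizontal axis) of each enzyme against the 5 controls, for all 5 Glut1-KO libraries in black, the 3 female ones in orange and the 2 male ones in blue. All intervals of the full comparison include 0, and of the male comparison those of Mvd and Sqle do not, before adjustment over all genes.

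Variation inside the groups was uneven along the pathway. The SD within groups on the log2 scale was 0.98 for Idi1, 0.64 for Mvd, 0.56 for Sqle and 0.52 for Cyp51, above the median of 0.351 over all tested genes, and 0.29 for Fdps, 0.27 for Hmgcs1 and 0.18 for Fdft1, below it. From the lowest to the highest of the 10 libraries, Idi1 spanned 8.14-fold, Mvd 3.97-fold, Sqle 3.31-fold and Cyp51 2.95-fold, whereas Fdft1 spanned 1.53-fold. Control replicate 5 was among the 3 lowest libraries for all 7 enzymes and control replicate 3 for 5 of them. Glut1-KO replicates 4 and 5 were each among the 3 highest for 5 enzymes. Summed over the 7 enzymes, the controls ran from 324 CPM in replicate 5 to 577 CPM in replicate 2, and the Glut1-KO libraries from 436 CPM in replicate 3 to 592 CPM in replicate 5.

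**Figure D3:**
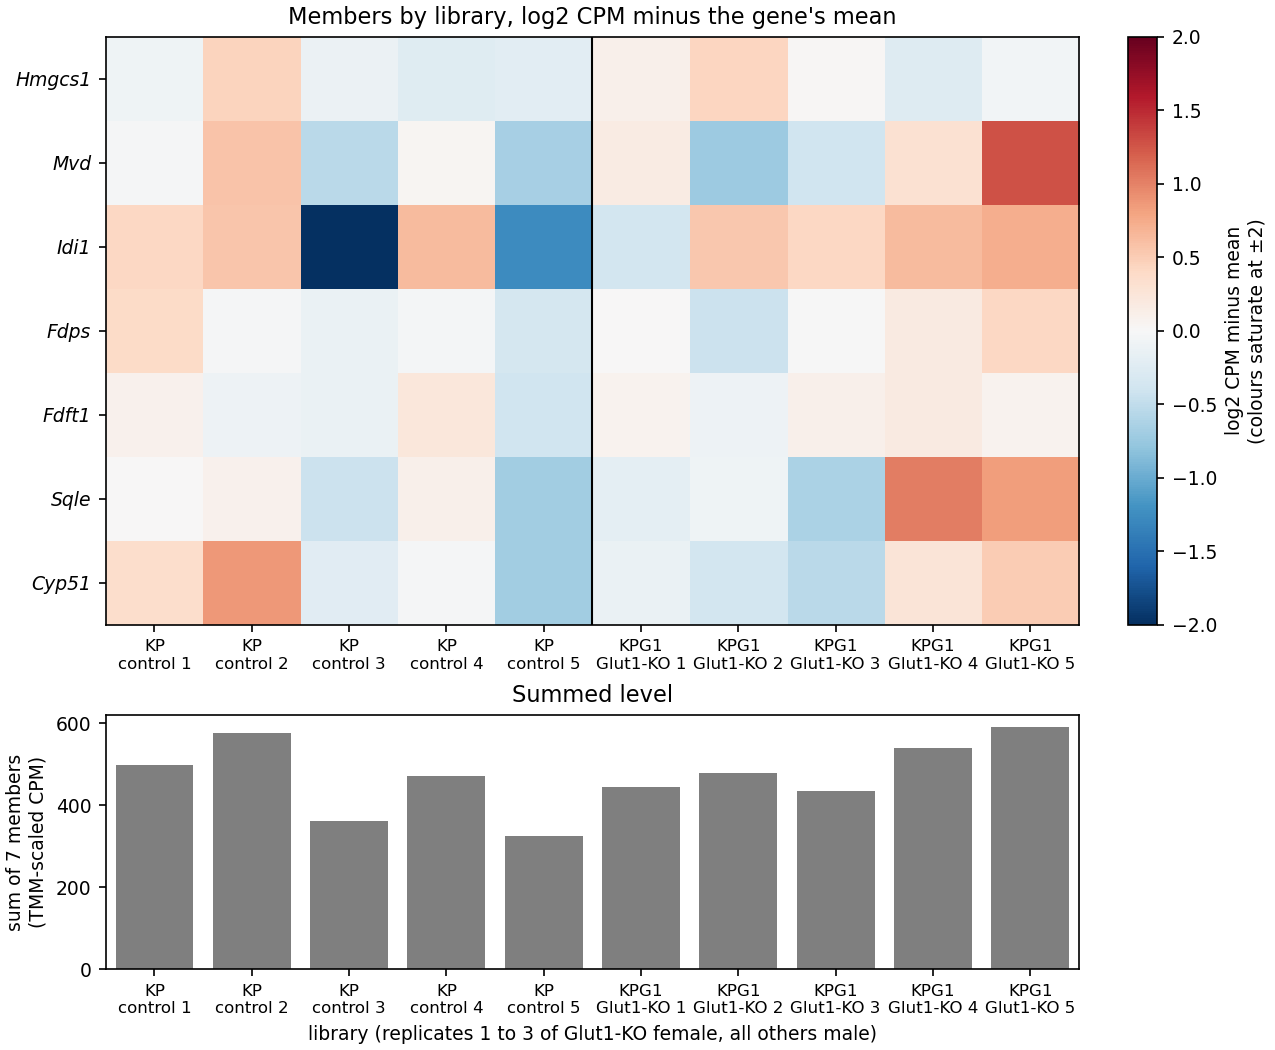
Upper panel, log2 CPM of each enzyme minus its mean over the 10 libraries (colour, saturated at ±2), with enzymes in rows and libraries in columns. Lower panel, the sum of the 7 enzymes in TMM-scaled CPM. Control replicates 3 and 5 are low for most enzymes (sums of 362 and 324 CPM) and Glut1-KO replicates 4 and 5 are high (540 and 592 CPM), while the row of Hmgcs1 follows another order.

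Correlations over the 10 libraries are given as a description, without p-values, since libraries may share animals and share their sorting and library preparation. Of the 21 pairs of enzymes, 17 had a positive Pearson r, with a median of 0.51. Hmgcs1 is set apart in what follows because its values of r were seen to be low. The 15 pairs among the 6 enzymes other than Hmgcs1 had a Pearson r of log2 CPM from 0.37 to 0.82, with a median of 0.61, and all were positive. Over all pairs of tested genes the median r was -0.001. Mvd and Cyp51 were the closest pair (r = 0.82, Spearman rho = 0.84, and r = 0.88 without the 2 libraries farthest from the median of Mvd), followed by Mvd and Fdps (r = 0.77, and 0.53 without the same 2 libraries) and Mvd and Sqle (r = 0.76, and 0.75). With each pair's own 2 farthest libraries left out, the 15 pairs ran from -0.17 to 0.88 with a median of 0.53, and that of Idi1 and Fdft1 went from 0.61 to 0.04. The 6 pairs with Hmgcs1 ran from -0.31 to 0.25 with a median of -0.07. Without control replicate 2 and Glut1-KO replicate 2, where Hmgcs1 was highest, they ran from -0.30 to 0.20, and those with Fdps (-0.31 to 0.20), Idi1 (0.25 to -0.02), Fdft1, Cyp51 and Mvd changed sign. With the means of the groups removed, the 15 pairs kept a median r of 0.58. Part of the likeness rests on the low controls, since without control replicates 3 and 5 the median of the 15 pairs was 0.45, with 14 of 15 positive, and the pair of Fdft1 and Cyp51 went from 0.37 to -0.17. Among the 4 promoter windows, that of Hmgcs1 also holds the only match to TCACNCCAC, the single form of the sterol regulatory element searched. Whether this match and the low values of r are related was not tested.

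**Figure D4:**
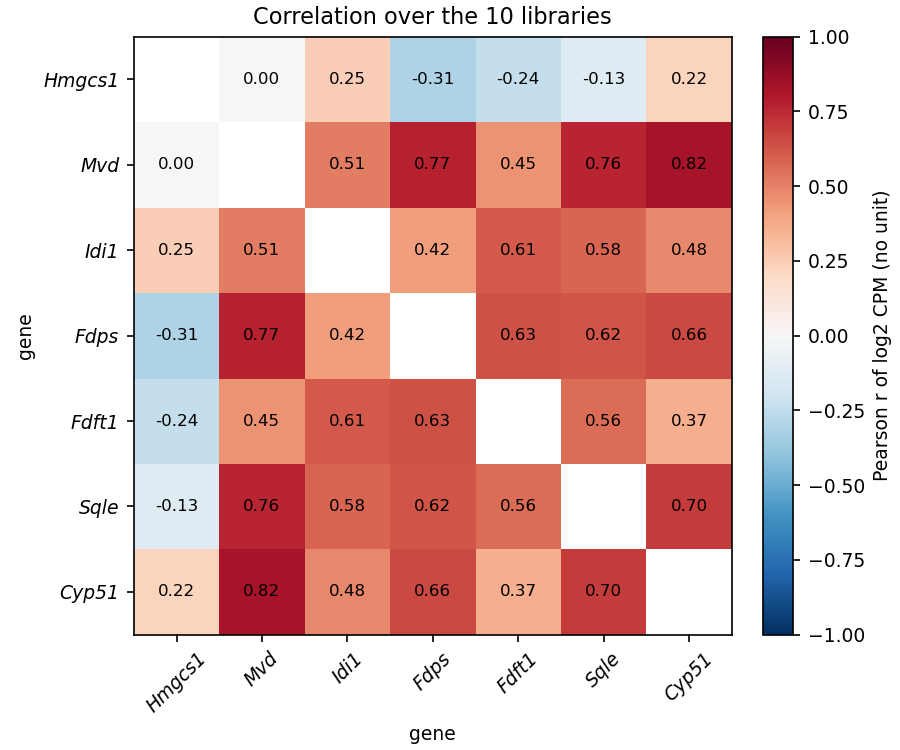
Pearson r (no unit) of log2 CPM over the 10 libraries for each pair of enzymes, with both axes listing the 7 genes in pathway order. The row and column of Hmgcs1 lie between -0.31 and 0.25, and the other 15 pairs between 0.37 and 0.82.

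The 5 genes outside the 7 whose log2 CPM most resembled the mean standardized level of the enzymes over the 10 libraries were 1700052N19Rik (r = 0.97), Acp5 (r = 0.97), Vsig1 (r = 0.96), Gm15283 (r = 0.96) and Alg11 (r = 0.95). Acp5, the tartrate-resistant acid phosphatase, went from 6.85 CPM in control replicate 5 to 54.1 CPM in Glut1-KO replicate 4, and Vsig1, a surface protein of gastric epithelium, from 15.3 CPM in control replicate 5 to 96.0 CPM in Glut1-KO replicate 5. After removal of the group means, 4 of these 5 remained among the 5 most alike. The 5 were picked as the highest of 15922 tested genes over only 10 libraries, so their r is high in part by selection. Gm15283 was low, at 0.31 to 1.41 CPM.

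Of 11 marker lists, that of ciliated cells was the most strongly related to the level of the enzymes, in the opposite direction. The 9 ciliated cell genes found of 10 sought summed to 301 CPM in control replicate 5 and 106 CPM in control replicate 3, the libraries with the lowest enzyme levels, and to between 12.3 and 62.9 CPM in the other controls and 16.7 and 62.1 CPM in the Glut1-KO libraries. None of them was at 0 in any library, all 9 had a negative log2 fold change in Glut1-KO, and 0 passed the threshold. Over the 10 libraries the mean standardized level of these genes and that of the 7 enzymes gave r = -0.88 (rho = -0.76, and r = -0.76 without control replicates 2 and 5). The 16 genes that cell dissociation is known to induce summed to 4370 and 4830 CPM in the male Glut1-KO libraries, below the 6330 to 7020 CPM of the female ones and the 6540 to 8820 CPM of the controls, with r = -0.69 to the enzymes (-0.58 without 2 libraries). The 10 alveolar type 2 markers, all detected in every library, summed to 28400 to 85800 CPM in controls and 52900 to 73400 CPM in Glut1-KO (r = -0.52, and -0.12 without 2 libraries), and the 8 tumor epithelium markers to 4800 to 7350 and 4670 to 10300 CPM (r = 0.37). The 12 leukocyte genes summed to 301 to 447 CPM in controls and 324 to 562 CPM in Glut1-KO, Cd3e being at 0 in part of the libraries (r = -0.01), and the 12 proliferation genes to 438 to 844 and 386 to 554 CPM (r = 0.23). For the remaining lists r was -0.59 for alveolar type 1, -0.23 for club, -0.17 for endothelial, 0.09 for fibroblast and -0.08 for erythroid genes. Without the 2 libraries farthest from the median of each list these came to -0.44, -0.15, 0.12, 0.05 and 0.44, and to 0.24 for tumor epithelium, 0.13 for leukocyte and 0.25 for proliferation genes, so the sign turned for endothelial, erythroid and leukocyte genes. Between groups, all 10 endothelial genes had a positive log2 fold change in Glut1-KO (median 0.64), as had 9 of 11 tested leukocyte genes (median 0.88), whereas 15 of 16 dissociation stress genes had a negative one (median -0.32) and the medians of club and erythroid genes were -0.56 and -0.55, with 0 genes of any marker list past the threshold. In bulk samples fewer cells of a type and less RNA per cell cannot be told apart, and the part of any of these in the levels of the enzymes was not tested.

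**Figure D5:**
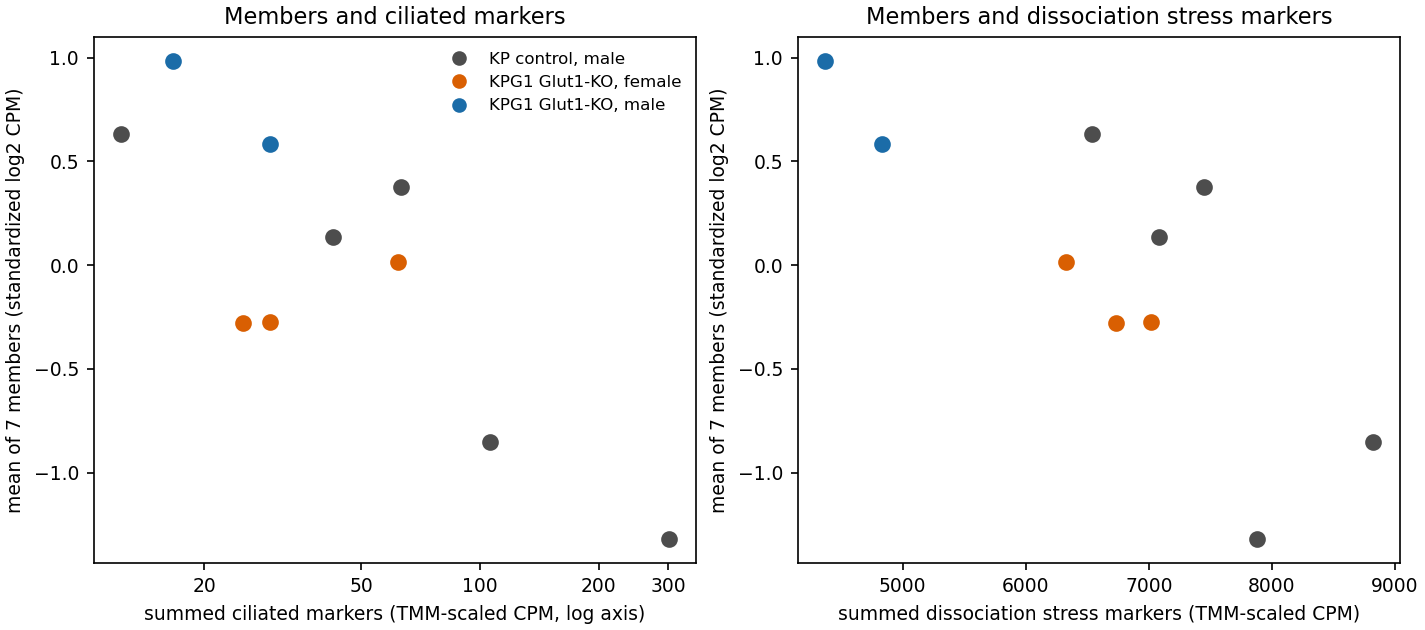
Mean of the 7 enzymes (standardized log2 CPM, vertical axis) against the summed CPM of 9 ciliated cell genes (left, log axis) and of 16 dissociation stress genes (right), with 1 point per library coloured as control (grey), female Glut1-KO (orange) or male Glut1-KO (blue). Control replicates 5 and 3 combine the highest ciliated sums (301 and 106 CPM) with the lowest enzyme levels, and the male Glut1-KO libraries combine the lowest stress sums (4370 and 4830 CPM) with 2 of the 3 highest enzyme levels.

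Of 15 other enzymes of the same pathway, all tested, 9 had a positive and 6 a negative log2 fold change in Glut1-KO, with a median of 0.01 (all genes -0.005), and 0 passed the threshold in either direction. They ran from -0.30 for Ebp, the sterol isomerase (SE 0.17, limma adjusted p = 0.716), to 0.35 for Pmvk, the phosphomevalonate kinase (SE 0.21, limma adjusted p = 0.733). Acat2, which supplies acetoacetyl-CoA to Hmgcs1, had 0.22 (SE 0.14, limma adjusted p = 0.743). Msmo1, a methylsterol oxidase that acts later in the pathway than Cyp51, had 0.01 (SE 0.38, limma adjusted p = 0.995). Lbr, a sterol reductase that is also the lamin B receptor of the nuclear envelope, was the single gene of the list whose groups did not overlap, at 57.1 to 63.9 CPM in controls and 64.0 to 77.3 CPM in Glut1-KO, with a gap that is small beside either range (1 of 15 genes, where 1.85% of all genes did not overlap). Its log2 fold change was 0.21 (SE 0.09, limma adjusted p = 0.644; exact permutation p = 0.00794, the smallest the design allows, where the smallest adjusted exact p over all genes was 0.431). Like the 7 enzymes, the 15 had a higher median in the male Glut1-KO libraries against controls (0.30, 13 of 15 positive) than in the female ones (-0.20, 5 of 15 positive).

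Of the lists around the pathway, 0 genes passed the threshold in either direction. The 14 genes of sterol sensing and SREBP processing had 9 positive and 5 negative log2 fold changes and a median of 0.12, with 0.37 for Rnf139, -0.34 for Mbtps2, a protease that releases SREBP, and 0.31 for Ubxn8 having the smallest p. The 17 genes of cholesterol uptake and transport within the cell had 9 positive and 8 negative values and a median of 0.11. Among them Npc2, which carries cholesterol out of lysosomes, had a mean of 2344 ± 542 CPM in controls and 3655 ± 814 CPM in Glut1-KO and a log2 fold change of 0.64 (SE 0.20, limma adjusted p = 0.482), and Lipa, the lysosomal lipase that frees it, had 0.44 (SE 0.18, limma adjusted p = 0.612). The leukocyte and endothelial markers given above had positive medians in the same comparison, and their part in these values was not tested. The 12 genes of efflux, storage and oxysterols had 11 positive values and a median of 0.23. Nceh1, which splits cholesteryl esters, had 0.41, and Soat1, which forms them, had 0.43. Apoe had the largest value of this list, 1.08 (SE 0.62, limma adjusted p = 0.72). It varied widely, at 51.3 to 255 CPM in controls and 85.8 to 800 CPM in Glut1-KO. The 16 genes of other branches from mevalonate had 5 positive and 11 negative values and a median of -0.09, Trit1 having -0.26 and Fnta, a subunit of the enzyme that attaches farnesyl to proteins, 0.16. In fatty acid synthesis and desaturation, 13 of 15 genes were tested, 10 with positive and 3 with negative values and a median of 0.15, and the smallest p belonged to Acacb, an acetyl-CoA carboxylase, with 0.67 (SE 0.19, limma adjusted p = 0.432). Against the controls, the male and the female Glut1-KO libraries gave medians of 0.25 and -0.02 for sterol sensing, 0.01 and 0.07 for uptake and transport, 0.15 and 0.46 for efflux, storage and oxysterols (7 and 8 of 12 positive), -0.07 and -0.11 for the other branches, and 0.34 and 0.20 for fatty acid synthesis. The median was thus higher in males for sterol sensing, the other branches and fatty acid synthesis, and higher in females for the lists of uptake and of efflux, a difference that was not tested.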

How the data were processed

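Per the labels and the study's methods, the authors prepared stranded mRNA libraries from the CD45-negative fraction of 10 tumor samples, sequenced single-end reads, aligned them to mm10 and deposited counts per gene. The submitters' processing notes name bcl2fastq 2.17, cutadapt 1.4.2, HISAT2, featureCounts 1.4.4 and edgeR. The deposited counts are whole reads and were used as they stand. The log2 values that the authors deposited for the same libraries, normalized by them, served for 1 alternative only. Groups came from the labels. A further allele that both groups share is not reported here.

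From the counts, genes were filtered with filterByExpr (minimum count 10, minimum total 15), which left 15922 of 39017 genes. TMM factors came from edgeR 4.0.16, and voom and limma 3.58.1 (R 4.3.3) gave log2 fold changes and p-values, adjusted by Benjamini-Hochberg over all genes tested, as the study's methods name these tools. Library totals were 35250991 to 49760462 counts, so counting error is small for these genes. TPM used exon lengths from GENCODE M21 (GRCm38). The code was tested on simulated data. DESeq2 1.42.0, edgeR's quasi-likelihood test and other settings were tried as alternatives.

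The genes and lists were chosen with earlier results of these data known. All 7 enzymes were named, as were tested genes of the other synthesis enzymes, the genes with the smallest p of each further list, and the 5 genes of most similar pattern; some genes are named only through the counts of their list. Of the marker genes, 1 was not found in the table. Same-numbered replicates of the groups showed correlated deviations in 1 of 5 pairs (r over 0.1), so they were not taken as pairs.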

Additional observations from a re-analysis of the deposited data

Results flagged for a closer look

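In groups of 5 libraries, a library whose gap to its nearest neighbour exceeded 0.71 of the range of its group was singled out. Over 40 sets of values (the 7 enzymes, their sum, Slc2a1 and 11 marker lists, in either group) this held for 4, where chance alone gives about 2. Hmgcs1 reached 194 CPM in control replicate 2, against 121 to 134 CPM in the other controls. Proliferation genes summed to 844 CPM in the same library, against 438 to 478 CPM in the others. Erythroid genes summed to 1460 CPM in control replicate 3, against 237 to 463 CPM, and ciliated cell genes to 62.1 CPM in Glut1-KO replicate 1, against 16.7 to 29.4 CPM.

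For 2 enzymes every male Glut1-KO library lay on one side of the control mean and every female one on the other. For Cyp51 the log2 fold change against controls was 0.32 in males and -0.40 in females, and for Hmgcs1 it was -0.11 in males and 0.23 in females. The difference between the sexes within Glut1-KO, fitted after these values had been seen, was 0.73 for Cyp51 (limma adjusted p = 0.321) and -0.34 for Hmgcs1 (limma adjusted p = 0.410).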

How the results depend on the processing

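Under 24 alternatives each (tools, scalings, filters, sex, the second number in the names and leaving out each library), 0 of the 7 enzymes and 0 genes of the 6 other lists passed the threshold. Among the 7 enzymes the smallest adjusted p was 0.222, by limma, for Sqle with sex as a covariate. Idi1 and Fdft1 kept a positive log2 fold change throughout, from 0.30 to 1.06 and from 0.04 to 0.20. With sex as a covariate and with male libraries only, Hmgcs1 came to -0.11, Cyp51 to 0.325 and Slc2a1 to 0.061, all of opposite sign to the values from 10 libraries (Slc2a1 -0.62). With female Glut1-KO libraries against controls, Mvd came to -0.21, Fdps to -0.10 and Sqle to -0.12. Leaving out 1 library gave -0.005 to 0.211 for Hmgcs1, -0.074 to 0.436 for Mvd, -0.017 to 0.185 for Fdps (-0.009 without control replicate 5), -0.306 to 0.093 for Cyp51 (0.005 without Glut1-KO replicate 3), 0.16 to 0.57 for Sqle and -0.81 to -0.42 for Slc2a1. Over all genes, 0 passed in the reported fit, 215 with DESeq2, 3 with sex as a covariate, 1 with males only, 7 with females against controls, 1 with counts summed by the second number in the names, and 0 to 1 without a single library (1 without control replicate 3). The cause of these shifts was not tested. With the replicate block, 0 genes passed, Sqle came to 0.39 and Idi1 to 0.67. With counts summed by the second number in the names, Idi1 came to 0.39, Sqle to 0.21, Cyp51 to -0.23 and Hmgcs1 to 0.17. With voom weights for library quality, Idi1 came to 0.59, Sqle to 0.22, Cyp51 to -0.05 and Hmgcs1 to 0.22. No sign of the 7 enzymes was altered in any of these fits. With TPM in place of CPM, ratios of group means moved by less than 1 SD for all 7. The enzymes had at least 419 counts in every library, so counting error was small beside the spread between libraries.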
